A study of Mus musculus with 64 samples.

Results

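The comparison described here set germ cells sorted from the testis at P10.5 against the whole testis at the same age. All 7 of its RNA-Seq libraries came from Morc1tg/+ mice, in which a tyrosinase transgene inserted into 1 copy of Morc1 removes part of the coding exons. They are 7 of the 64 samples of the series and 7 of its 47 RNA-Seq samples: 4 libraries of sorted germ cells and 3 of whole testis. The Morc1tg allele was kept on the FVB/N background, and each library held the RNA of a single mouse. Cells were sorted at P10.5 as low in side scatter, high for the surface protein EPCAM and negative for MHC class I (H2-Kq). Whole testis replicate 1 belongs to a preliminary batch, and replicates 2 and 3 to the main batch. Set beside them are P10.5 libraries of Morc1tg/tg mice, with both copies disrupted (3 sorted, 3 whole testis). The paper reports that males of this genotype are infertile and lose their germ cells during meiosis. Also used are 2 Morc1+/+ whole testis libraries of P10.5 and 7 of sorted Morc1tg/+ germ cells from E16.5, E18.5 and P2.5. The series used an Oct4-IRES-eGfp reporter strain to sort germ cells up to P2.5, and the sources used here do not state whether the P10.5 mice carried it.

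The testis at this age holds seminiferous tubules in which spermatogonia and the first cells entering meiosis lie among Sertoli cells, the somatic nurse cells of the tubule. Smooth-muscle-like peritubular cells wrap the tubules, and Leydig cells, vessels and macrophages lie between them. Spermatogonia include undifferentiated cells that sustain the lineage through GDNF signalling and differentiating cells that depend on the receptor KIT and on retinoic acid before they begin meiosis.

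The tissues were not processed alike. Sorted germ cells gave total RNA depleted of ribosomal RNA, prepared from 10 ng with a kit for degraded RNA (Ovation Human FFPE). Whole testis gave poly(A)-selected RNA, prepared from 250 ng to 2 µg with the TruSeq v2 kit. Tissue and kit therefore cannot be told apart in any value below. Sorted libraries had 7474627 to 9085600 reads on genes, and whole testis libraries 25148153 to 28750656. They made up 49.6% to 53.6% of the mapped reads in sorted libraries and 87.8% to 88.4% in whole testis. The deposited RPKM, which divides by all mapped reads, is therefore lower for sorted cells at the same share of gene reads. Levels below are given as normalised RPKM: reads divided by exon length and by the library's reads on genes, scaled by the TMM factors of edgeR. Between 16658 and 17125 genes had a read in each sorted library, and between 18343 and 18524 in each whole testis library.

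Morc1, the gene that carries the insertion, is a chromatin ATPase of the male germline. Its level was 14.9, 19.7, 21.2 and 17.5 in sorted libraries 1 to 4 and 7.28, 7.45 and 7.51 in whole testis libraries 1 to 3. Every sorted library lay above every whole testis library (log2 fold change 1.30 ± 0.12 (SE), adjusted p = 2.28e-08, edgeR). SE beside a log2 fold change is derived from the test statistic, and it can be too small for genes with few reads. Values of the genes behind the sort are given as a description only. Epcam had levels of 71.5, 66.1, 57.6 and 58.1 in sorted cells and 37.96, 40.9 and 42.3 in whole testis. H2-K1 had levels of 11.5, 16.48, 16.46 and 17.8 and 20.2, 20.8 and 24.4, so reads assigned to the H2-K gene were still present in cells sorted as negative for H2-Kq. On these levels the groups did not overlap for either gene, but on the deposited RPKM those of Epcam did. Among other parts of MHC class I, H2-D1 differed more (mean levels 6.79 against 36.6). Only reads that matched a single place in mm9 were kept, so the levels of similar MHC class I genes are uncertain. Tap1, which carries peptides to MHC class I, was nearly without reads in sorted cells (mean levels 0.072 against 2.65). B2m, another part of MHC class I, stayed at levels of 36.9 to 55.2 in sorted cells, when normalised with the other sorted stages. Over the 5 genes listed for the sort, the summed level averaged 129 against 174, and the median log2 fold change was -0.75.

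Of 26385 genes in the files, 14596 had enough reads to be tested. In sorted germ cells 5890 genes (40.4% of those tested) were higher and 6249 (42.8%) lower at an adjusted p under 0.05, and the median log2 fold change (sorted over whole testis) was -0.03. Because so many genes passed, a stricter call that also asks for at least a 4-fold difference is used beside it. By that call 1125 genes (7.71%) were higher and 2141 (14.7%) lower. These 4 shares are the background against which the counts of every gene list stand. With limma on log2(RPKM + 0.5) of the deposited values, the median was -0.63 and 2998 genes were higher and 9160 lower, so the direction of small differences depends on the scale and test. Values quoted below from that alternative stand beside this median of -0.63. Without whole testis replicate 1, and so with the main batch alone, the counts were 5564 higher and 6070 lower, and 1267 and 2179 at 4-fold. In bulk RNA, fewer cells of a type and less RNA per cell cannot be told apart, so a difference here can be either.

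**Figure D1:**
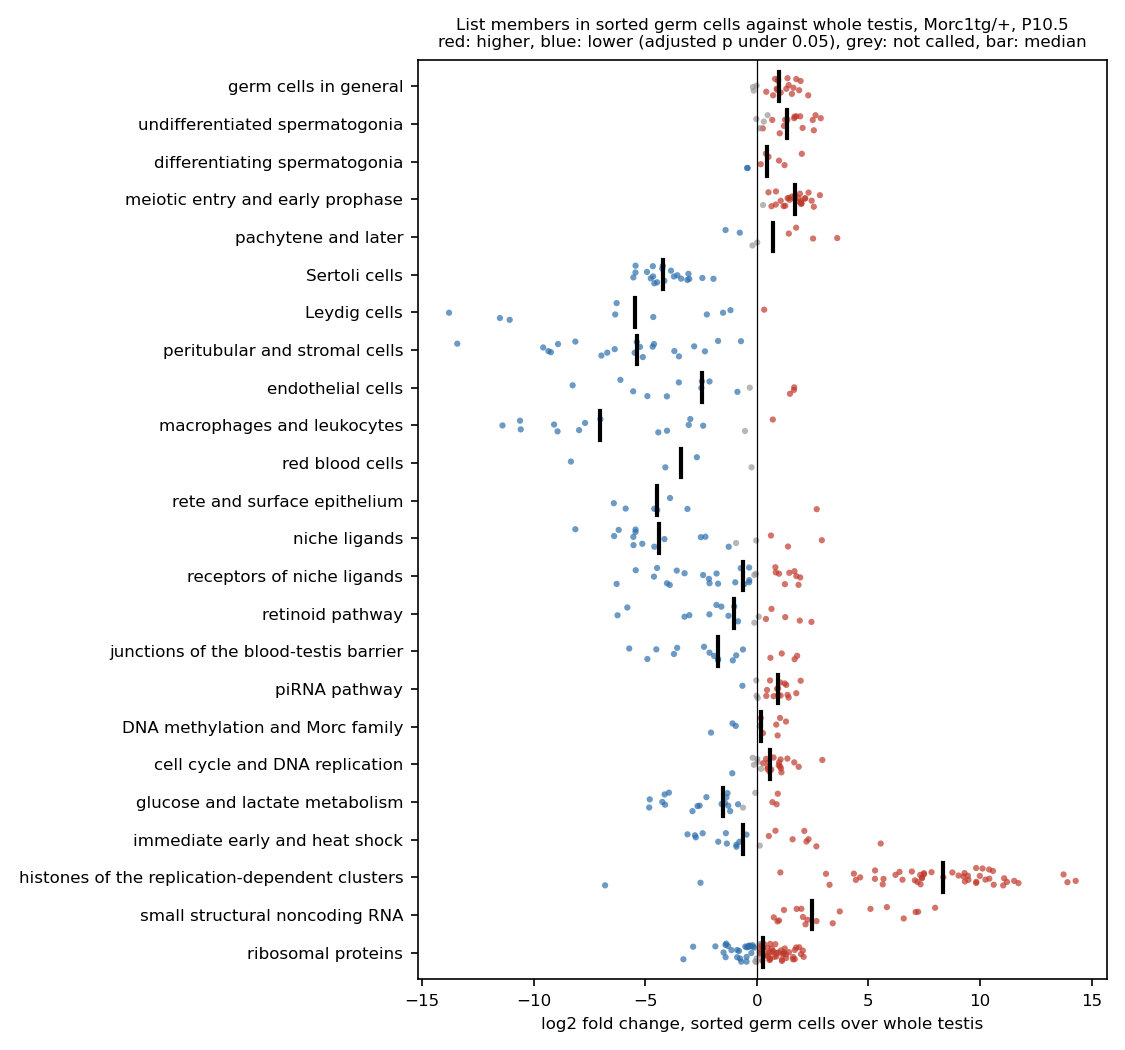
Log2 fold change of each tested member of the gene lists, sorted germ cells over whole testis in Morc1tg/+ mice at P10.5 (x axis), with 1 point per gene and 1 row per list. Red points were higher and blue points lower at an adjusted p under 0.05, grey points were not called, and black bars are list medians. Germ cell lists sit right of 0, somatic lists left of it, and the histone list has its median at 8.35.

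Genes of the germ cell lineage were higher in sorted cells, but by modest folds. Of 20 genes expressed across male germ cells, 17 rose and 3 were not called, while only 1 passed 4-fold. Their median log2 fold change was 1.01, and their summed level was 215% of the whole testis mean (204% to 226% over the 4 libraries). Ddx4, an RNA helicase that defines germ cells, had levels of 101, 107, 104 and 94.1 in sorted libraries and 52.1, 56.2 and 54.2 in whole testis (log2 fold change 0.91 ± 0.07 (SE), adjusted p = 3.55e-09). Dazl, an RNA-binding protein of the germline, had levels of 469, 507, 383 and 389.7 against 139, 155 and 148 (log2 fold change 1.57). The sorted and whole testis libraries did not overlap for either gene. Usp26, an X-linked deubiquitinase gene, had the largest difference of the list (mean levels 102 against 20.8, log2 fold change 2.30). Slc25a31, Tex101 and Fkbp6 did not pass the test and had log2 fold changes of -0.18, -0.14 and -0.01.

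Undifferentiated spermatogonia were represented by 20 genes, of which 19 could be tested and Pou3f1 had no read. Of the 19, 15 rose, none fell, and 5 passed 4-fold, with a median of 1.37. Zbtb16 (PLZF), a transcription factor needed to maintain these cells, was even across sorted libraries at 68.7, 67.2, 68.3 and 69.3 and had levels of 23.4, 22.4 and 18.4 in whole testis (log2 fold change 1.67 ± 0.08 (SE), adjusted p = 1.22e-11). The GDNF receptor genes both rose: Ret had a mean level of 46.0 ± 2.77 (SD, n = 4) against 12.0 ± 0.547 (n = 3), and Gfra1 35.2 ± 3.56 against 10.3 ± 0.619. Id4, whose expression marks spermatogonia with stem cell activity, rose from a level of 6.11 to 25.3 (log2 fold change 2.05). Among the transcription factors, Sall4, Eomes, Lhx1 and T had log2 fold changes of 2.50, 2.55, 2.63 and 2.86. Neurog3, Tspan8, Utf1 and Nanos3 did not pass, with log2 fold changes from -0.02 to 0.48.

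Genes of differentiating spermatogonia were mixed. Of 8, 6 rose (75.0%, against 40.4% of all genes) and 2 fell (25.0%, against 42.8%), with a median of 0.46. With limma on the deposited RPKM the median was -0.23, against -0.63 over all genes. In Morc1tg/tg mice 6 were called higher and 0 lower. Kit, the receptor that marks differentiating spermatogonia, had levels of 45.2, 40.7, 44.4 and 47.0 in sorted cells and 24.4, 23.4 and 18.9 in whole testis (log2 fold change 0.99 ± 0.09 (SE), adjusted p = 2.34e-08). Stra8, which responds to retinoic acid before meiosis, rose (log2 fold change 1.24), as did Dmrtb1, which controls the switch from mitosis to meiosis (log2 fold change 2.01). Sohlh1, a transcription factor of spermatogonia, was lower in sorted cells (levels 32.5, 30.6, 31.1 and 28.3 against 38.8, 37.4 and 46.0, log2 fold change -0.41). The cyclin gene Ccnd2 was also lower (log2 fold change -0.44).

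Genes of meiotic entry and early prophase formed the germ cell list with the highest median, 1.72. Of 27 genes, 26 rose, none fell and 7 passed 4-fold, and Rec8 was not called (log2 fold change 0.28). Their summed level was 333% of whole testis (325% to 339%). Sycp1, which builds the central region of the synaptonemal complex, had levels of 121, 124, 109 and 115 in sorted cells and 23.7, 29.5 and 25.0 in whole testis (log2 fold change 2.17 ± 0.09 (SE), adjusted p = 8.21e-13). Other parts of that complex rose by different amounts, with log2 fold changes of 0.66 for Syce2, 0.86 for Sycp3 and 2.82 for Syce3. The meiotic cohesin gene Smc1b rose from a level of 19.8 to 116 (log2 fold change 2.55). Dmc1, the recombinase of meiosis, rose from a level of 9.84 to 33.9 (log2 fold change 1.79). Spo11, which makes the breaks that start recombination, was low in both (mean levels 1.78 against 0.776, log2 fold change 1.20).

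Of 12 genes of pachytene and later cells, 8 could be tested: 4 rose (50.0%, against 40.4% of all genes), 2 fell (25.0%, against 42.8%) and 2 were not called. Ybx2, an RNA-binding protein, rose from a level of 9.53 to 54.7 (log2 fold change 2.52). Piwil1 (MIWI), a PIWI protein of pachytene cells, was 3.84 against 1.42 (log2 fold change 1.43). Ldhc, Pgk2, Tdrd6 and Acr had too few reads for the test, with at most 0.802 in sorted cells on average. Meig1 and the chaperone gene Hspa2 fell (log2 fold changes -1.40 and -0.77).

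**Figure D2:**
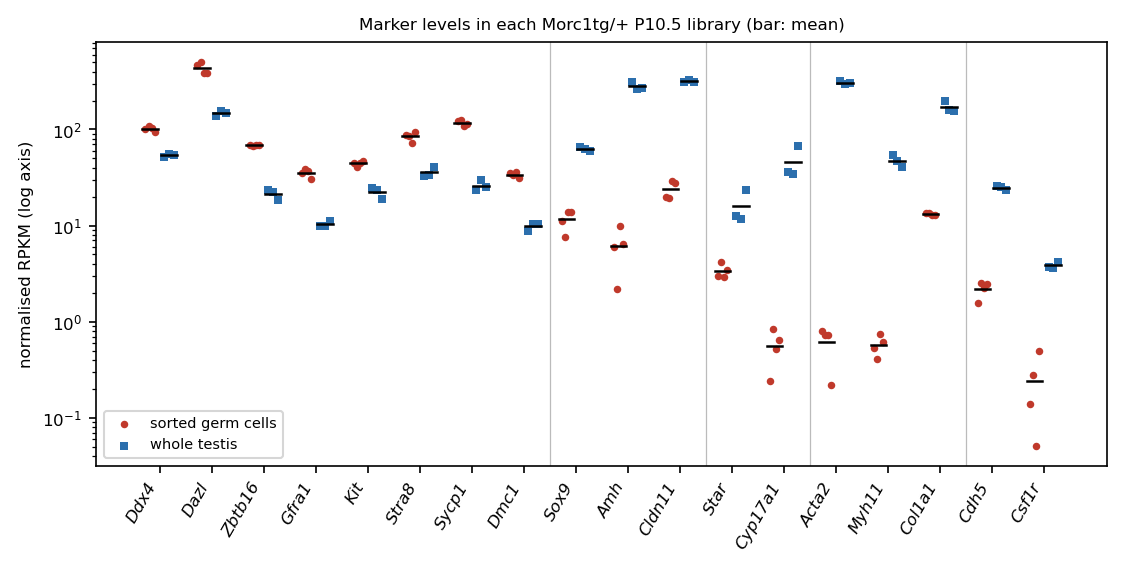
Normalised RPKM (y axis, log scale) of 18 marker genes in each of the 4 sorted germ cell libraries (red circles) and 3 whole testis libraries (blue squares), with black bars for means. The germ cell genes on the left were higher in every sorted library, and the somatic genes to the right of them, from Sox9 to Csf1r, were lower in every one.

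Promoters of the germ cell genes were read for short motifs as a description. A 300-base promoter from RefSeq (GRCm38.p6, 250 bases before to 50 after the start) was found for 10269 of the 14596 genes tested. Some genes have more than 1 such window and were counted if any of them held the motif. Shares of genes and shares of windows are therefore not the same measure. CACGTG, the palindromic E-box bound by many basic helix-loop-helix factors, occurred in 11.7% of these genes and in 7.15% of all promoter windows. It was found in 10 of 16 general germ cell genes with a promoter entry (62.5%), in 46.7% of 15 piRNA pathway genes, in 28.6% of 21 meiotic genes and in 0 of 13 genes of undifferentiated spermatogonia. The germ cell and piRNA lists share members. Among genes called at 4-fold its share was 8.29% for those higher and 8.42% for those lower. Its share was 20.0% of 15 Sertoli cell genes and 23.5% of 17 immediate early and heat shock genes, and it was in 0 of 7 Leydig, 13 peritubular and stromal, 8 endothelial and 11 macrophage and leukocyte genes. GCGGGAA, a form of the E2F site searched on both strands, occurred in 9.85% of tested genes, in 42.9% of the meiotic genes and in 31.2% of the general germ cell genes. It was in 15.8% of 19 cell cycle genes. It was in 0 of 13 genes of undifferentiated spermatogonia, 0 of 7 of differentiating spermatogonia and 0 of 6 of pachytene and later cells. Its share was 7.67% among genes 4-fold higher and 7.19% among those 4-fold lower, both below that of all tested genes. CAAGGTCA, a site of the steroidogenic factor SF1, occurred in 1.35% of tested genes, in 1.1% of those 4-fold higher, in 2.19% of those 4-fold lower and in 0 of 7 Leydig cell genes. Promoters of Ddx4 and Sycp1 are shown because they carry the E-box upstream of 2 genes described above. Each reads 5′ to 3′ on the strand of the gene, with the E-box in capitals, at -29 from the start in Ddx4 and -94 in Sycp1.
Ddx4, chr13:112652261-112652560 (-): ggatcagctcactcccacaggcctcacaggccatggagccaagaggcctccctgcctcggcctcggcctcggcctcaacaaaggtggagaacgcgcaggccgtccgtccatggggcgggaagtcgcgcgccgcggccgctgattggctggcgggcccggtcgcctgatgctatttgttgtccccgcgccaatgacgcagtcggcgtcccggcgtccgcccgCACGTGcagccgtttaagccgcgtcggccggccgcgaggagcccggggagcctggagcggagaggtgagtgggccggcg
Sycp1, chr3:102936051-102936350 (-): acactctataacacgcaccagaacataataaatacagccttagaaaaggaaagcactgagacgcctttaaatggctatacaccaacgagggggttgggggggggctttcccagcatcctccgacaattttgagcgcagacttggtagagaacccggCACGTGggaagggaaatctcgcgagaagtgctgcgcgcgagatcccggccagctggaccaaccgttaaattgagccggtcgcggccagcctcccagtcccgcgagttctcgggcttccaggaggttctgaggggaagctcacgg

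Somatic genes were lower in sorted cells by much larger folds than germ cell genes were higher. All 21 tested Sertoli cell genes fell, 20 of them by 4-fold or more, with a median log2 fold change of -4.21. Their summed level was 5.18% of whole testis and lay at 4.43%, 4.53%, 6.45% and 5.29% in sorted libraries 1 to 4. Amh, the Müllerian-inhibiting hormone of immature Sertoli cells, had levels of 5.95, 2.20, 10.0 and 6.48 against 309, 267 and 270.4 (log2 fold change -5.53 ± 0.22 (SE), adjusted p = 7.3e-13). It varied more among sorted libraries than among whole testis libraries, and was lowest in library 2. Sox9, the transcription factor that specifies Sertoli cells, had levels of 11.04, 7.61, 13.9 and 13.8 against 65.6, 63.3 and 59.1 (log2 fold change -2.44 ± 0.14 (SE), adjusted p = 6.76e-11). Clu, a secreted chaperone, was the highest Sertoli gene in both (levels 86.4, 87.3, 146 and 105 against 3123, 2940.1 and 2526, log2 fold change -4.75). Inhbb, a subunit of the activins and inhibins, Gata4 and Fshr, the receptor of follicle-stimulating hormone, fell (log2 fold changes -5.44, -4.66 and -4.47). Transcripts of these genes were read in all 4 sorted libraries, and library 3 had the highest sum.

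Leydig cell genes were mostly lower, some of them to almost no reads. Of 10 tested, 9 fell, 7 of them by 4-fold, and the median was -5.46. Cyp11a1, which makes the first step of steroid synthesis from cholesterol, had 0 reads in the 4 sorted libraries and had levels of 63.8, 63.0 and 58.7 in whole testis, which puts whole testis at least 1259.8-fold above a floor of 3 reads over the sorted group (adjusted p = 4.42e-14). Hsd3b1 had 4 sorted reads against 21154 (log2 fold change -11.07, adjusted p = 1.55e-14, edgeR). Scarb1, a lipoprotein receptor, fell only from a level of 95.9 to 33.6 and gave most of the summed level of the list, which was 12.5% of whole testis. Srd5a1, a steroid 5-alpha reductase, was higher in sorted cells (mean levels 5.95 against 4.73, log2 fold change 0.33), but had a log2 fold change of -0.32 with limma on the deposited RPKM and was not called under a replicate block, without the filter on low counts or in Morc1tg/tg. Insl3, a peptide hormone of mature Leydig cells, was not tested and had 0 sorted reads.

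All 21 genes of peritubular and stromal cells fell, 19 of them by 4-fold, with a median of -5.38. Acta2, the smooth muscle actin, had levels of 0.805, 0.729, 0.731 and 0.22 in sorted cells and 319, 301 and 304 in whole testis (log2 fold change -8.91 ± 0.14 (SE), adjusted p = 6.35e-17). The collagen genes Col3a1 and Col1a2 fell (log2 fold changes -9.57 and -9.34). Col1a1 fell less, from a level of 172 to 13.2 (log2 fold change -3.70), and held an even level of 13.6, 13.5, 12.8 and 13.01 across sorted libraries. Tcf21, a transcription factor of stromal cells, had 0 sorted reads and was at least 976-fold higher in whole testis. The summed level of the list was 2.73% of whole testis (2.62% to 2.92%), the lowest share among the somatic lists.

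Endothelial genes did not move as a block. Of 14, 10 fell and 3 rose, with a median of -2.48 and a summed level of 60.1% of whole testis. Cdh5, the cadherin of vessel junctions, fell from levels of 25.5, 25.0 and 23.4 to 1.55, 2.52, 2.25 and 2.45 (log2 fold change -3.50 ± 0.12 (SE), adjusted p = 2.26e-13), and Pecam1, another junction protein, fell as well (log2 fold change -2.49). Sox17 had 0 sorted reads, and Emcn and Esam fell (log2 fold changes -6.11 and -5.54). By contrast Erg, an ETS transcription factor, had levels of 17.1, 19.0, 16.4 and 18.3 against 5.56, 5.64 and 5.42 (log2 fold change 1.67 ± 0.10 (SE), adjusted p = 8.31e-11). Plvap (log2 fold change 1.66) and Flt1, a VEGF receptor gene (log2 fold change 1.48), rose too. Those 3 genes went with the germ cell genes in direction, while the defining junction genes of the list were low.

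Genes of macrophages and other leukocytes fell in 13 of 15 cases, each by at least 4-fold. Of the 16 genes listed, 6 had 0 sorted reads, among them Lyz2, a lysozyme, and the complement genes C1qa and C1qc. Lyz2 was at least 239.6-fold higher in whole testis. The median was -7.01, or -4.42 with the genes that had 0 reads set at their bound. Cd68, a lysosomal protein gene often used for macrophages, was higher in sorted cells (levels 8.24, 7.12, 6.83 and 8.16 against 4.47, 4.37 and 5.02, log2 fold change 0.71, or 0.02 with limma on the deposited RPKM) and gave most of the summed level of 12.4%. Of 4 tested red blood cell genes, 3 fell. The summed level of red blood cell genes was 0.758, 6.88, 7.75 and 8.24 in sorted libraries 1 to 4 and 29.8, 33.3 and 88.4 in whole testis libraries 1 to 3, most of it from Hbb-b1 in every library but sorted library 1 (levels 0, 5.14, 6.23 and 5.35 against 16.54, 17.8 and 45.7). Hba-a1 was near 0 in the sorted libraries (levels 0, 0, 0 and 0.186). Of 7 tested genes of rete and surface epithelium, 6 fell and Pax8, a transcription factor, rose (mean levels 3.11 against 0.486, log2 fold change 2.68).

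**Figure D3:**
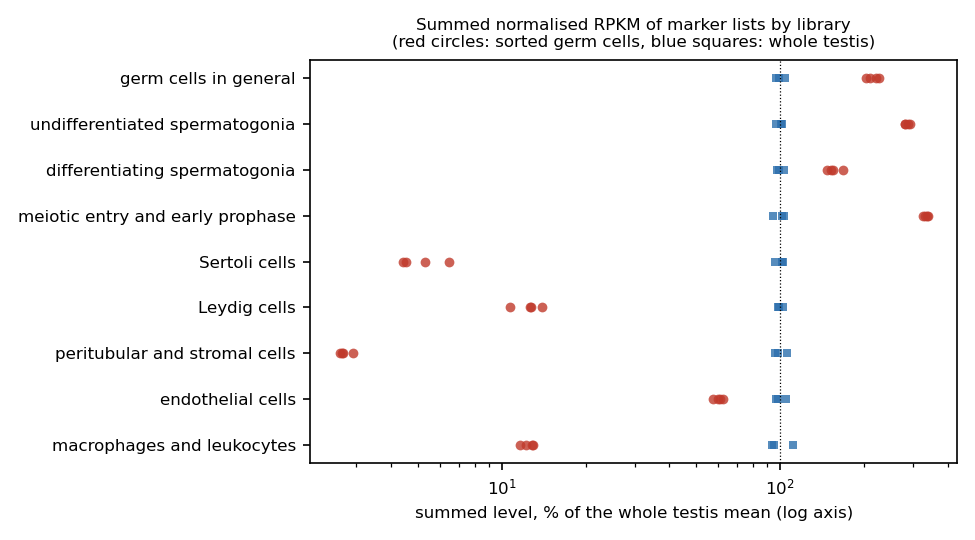
Summed normalised RPKM of 9 marker lists in each library, as a percentage of the whole testis mean (x axis, log scale), for 4 sorted germ cell libraries (red circles) and 3 whole testis libraries (blue squares). Germ cell lists lie between 147% and 339% in sorted libraries, while Sertoli genes lie between 4.43% and 6.45% and peritubular and stromal genes between 2.62% and 2.92%.

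Most of the listed ligands of the testis niche fell, and more of the listed receptors fell than rose. Of 18 tested niche ligands, 13 fell (72.2%, against 42.8% of all genes), 12 of them by 4-fold. Another 3 rose (16.7%, against 40.4%), and the median was -4.37. Gdnf, which sustains undifferentiated spermatogonia, had levels of 0, 0.553, 0.403 and 0.814 in sorted libraries and 7.76, 7.99 and 7.14 in whole testis (log2 fold change -4.14 ± 0.34 (SE), adjusted p = 8.53e-09). Its receptor genes Ret and Gfra1 had risen (log2 fold changes 1.94 and 1.77). Kitl, the ligand of KIT, fell from a level of 60.7 to 2.52 (log2 fold change -4.59). Kit itself had risen (log2 fold change 0.99), so the ligand and the receptor transcripts lay on opposite sides for both systems. Igf1 fell from a level of 24.4 to 0.0826 (log2 fold change -8.13) while Igf1r rose (log2 fold change 1.26). The platelet-derived growth factor system ran the other way. Pdgfa, the ligand, had levels of 34.0, 37.3, 37.5 and 45.8 in sorted cells against 14.1, 13.8 and 16.1 (log2 fold change 1.40 ± 0.11 (SE), adjusted p = 3.39e-09), and its receptor genes Pdgfra and Pdgfrb fell (log2 fold changes -4.61 and -1.74). Dhh, the hedgehog ligand of Sertoli cells, fell (log2 fold change -5.43), and so did its receptor Ptch1 (log2 fold change -2.41). Fgf9, a fibroblast growth factor, rose from a level of 0.366 to 2.78 (log2 fold change 2.91), as did the receptor gene Fgfr3 (log2 fold change 1.69). Of 30 tested receptors, 9 rose (30.0%, against 40.4% of all genes tested), 19 fell (63.3%, against 42.8%) and 2 were not called, and none that rose reached 4-fold. The receptors of gonadotropins and AMH (Fshr, Lhcgr and Amhr2) fell (log2 fold changes from -4.47 to -6.28).

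Retinoic acid is made by aldehyde dehydrogenases, broken down by CYP26 enzymes and read by nuclear receptors. Of 17 tested genes of the pathway, 10 fell (58.8%, against 42.8% of all genes), 5 rose (29.4%, against 40.4%) and 2 were not called. Aldh1a1, which makes retinoic acid, had levels of 6.24, 5.12, 8.55 and 5.91 in sorted cells and 483, 492 and 487 in whole testis (log2 fold change -6.24 ± 0.12 (SE), adjusted p = 1.8e-16). Aldh1a2 fell less (log2 fold change -2.12), and Cyp26b1, which breaks retinoic acid down, fell (log2 fold change -5.80). Stra6, the uptake receptor, fell (log2 fold change -3.02). Genes that rose were Rarg, a retinoic acid receptor of spermatogonia (levels 13.4, 12.1, 13.4 and 14.01 against 8.97, 8.00 and 8.17, log2 fold change 0.66), the binding proteins Crabp1, Crabp2 and Rbp4 (log2 fold changes 0.41, 1.27 and 1.92), and Lrat, which stores retinol as esters (log2 fold change 2.45). With limma on the deposited RPKM, Rarg and Crabp1 turned to -0.04 and -0.29. Rara fell (log2 fold change -0.84), and Rxra did not pass (log2 fold change 0.09).

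Of 17 genes of the junctions at the blood-testis barrier, 13 fell (76.5%, against 42.8% of all genes) and 4 rose (23.5%, against 40.4%). Gja1, a connexin of Sertoli cell gap junctions, fell from a level of 228 to 4.35 (log2 fold change -5.72). Cldn11, the claudin of Sertoli cell tight junctions, had levels of 19.96, 19.4, 29.4 and 28.03 against 312, 328 and 309 (log2 fold change -3.71 ± 0.12 (SE), adjusted p = 6.21e-14). Members that rose were Cdh1, a cadherin of undifferentiated spermatogonia (log2 fold change 1.69), Cldn3 (log2 fold change 1.80), the scaffold gene Tjp1 (levels 108, 113, 101 and 97.6 against 51.2, 50.2 and 43.7, log2 fold change 1.12) and Pvrl3, a nectin (log2 fold change 0.61, or -0.08 with limma on the deposited RPKM).

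The piRNA pathway, which silences transposons in male germ cells through small RNAs bound to PIWI proteins, rose in 15 of 19 genes (78.9%, against 40.4% of all genes). None reached 4-fold, and the median was 0.95. Mov10l1, a helicase needed for piRNA production, rose from a level of 30.02 to 102 (log2 fold change 1.77), and Mael from a level of 61.7 to 154 (log2 fold change 1.32). The PIWI genes Piwil2 and Piwil4 rose (log2 fold changes 0.42 and 1.24), but Piwil2 turned to -0.28 with limma on the deposited RPKM. Pld6, a mitochondrial protein of piRNA production, was the member that fell (log2 fold change -0.65). Of 11 tested genes of DNA methylation and the Morc family, 6 rose and 3 fell (54.5% and 27.3%, against 40.4% and 42.8% of all genes). Their median was 0.18, or -0.51 with limma on the deposited RPKM, where the median of all genes was -0.63. Dnmt1, the maintenance methyltransferase, rose from levels of 68.5, 64.9 and 65.3 to 149, 138, 129 and 128 (log2 fold change 1.04 ± 0.07 (SE), adjusted p = 9.62e-10). Of the de novo enzyme genes, Dnmt3a fell (levels 18.1, 16.2, 16.2 and 16.1 against 33.9, 33.5 and 28.8, log2 fold change -0.94) and Dnmt3b differed little (log2 fold change 0.18, adjusted p = 0.0486, edgeR). Tet1 and Tet2, which oxidise methylcytosine, fell (log2 fold changes -2.06 and -1.09). Morc3 and Morc4 rose (log2 fold changes 0.87 and 0.93), and Dnmt3l, at 0.371 against 0.589, was not tested.

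Cell cycle genes were higher in sorted cells in 18 of 24 cases (75.0%, against 40.4% of all genes), and 1 fell. The median was 0.60, or -0.10 with limma on the deposited RPKM, where the median of all genes was -0.63. Mki67, a marker of cycling cells, had levels of 159.6, 162, 145 and 146 against 20.7, 20.7 and 18.8 and was the only member past 4-fold (log2 fold change 2.93 ± 0.08 (SE), adjusted p = 8.67e-15). Cyclin genes were unequal: Ccne2 rose (log2 fold change 1.87) and so did Ccna2 (log2 fold change 1.37), Ccnb1 did not pass (log2 fold change 0.04) and Ccnd3 fell (log2 fold change -1.10). The replication licensing genes Mcm2 to Mcm7 rose (log2 fold changes from 0.28 to 1.04).

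Glucose and lactate metabolism fell in 17 of 22 genes (77.3%, against 42.8% of all genes), 10 of them by 4-fold, with a median of -1.50. Sertoli cells are known to pass lactate to germ cells, and the list holds the enzymes and transporters of that route. Ldha and Ldhb, the lactate dehydrogenase genes, fell from a level of 67.6 to 3.90 (log2 fold change -4.11) and from a level of 616 to 22.1 (log2 fold change -4.80). Slc16a3, a lactate exporter, fell (log2 fold change -4.82), and so did Slc16a1, a lactate and pyruvate transporter (log2 fold change -1.43). The glycolytic genes Tpi1, Pfkl, Pfkm and Pgk1 had log2 fold changes of -3.94, -4.24, -2.88 and -2.66. Gapdh went the other way (levels 454, 460.0, 451 and 488 against 244, 228 and 254, log2 fold change 0.94). It has many processed pseudogenes, and reads shared with near-identical copies were not kept, so its level is uncertain. The same limit holds for any other gene of the list that has such copies, whether it rose or fell. Pdha2, the testis copy of a pyruvate dehydrogenase subunit, rose as well (log2 fold change 0.89).

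Immediate early and heat shock genes, which respond within minutes to hours to stimuli that include tissue dissociation, were split. Of 20, 8 rose, 11 fell and 1 was not called. The share that rose, 40.0%, was close to the 40.4% of all genes, and the share that fell was 55.0% against 42.8%. Egr1 had levels of 97.9, 92.6, 107 and 128 in sorted cells and 16.9, 16.8 and 16.4 in whole testis (log2 fold change 2.67 ± 0.10 (SE), adjusted p = 4.9e-13). Fosb had the largest rise (levels 5.33, 5.14, 11.2 and 11.8 against 0.09, 0.241 and 0.195, log2 fold change 5.55), and Fos and Dusp1 rose (log2 fold changes 2.22 and 2.31). Jun (levels 4.58, 4.22, 6.36 and 7.20 against 27.2, 27.6 and 34.8, log2 fold change -2.43), Atf3 (log2 fold change -3.11) and the heat shock gene Hspa1b (log2 fold change -2.77) fell. Members of the same early response therefore differed in direction. The part of cell sorting in these values was not tested.

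Histone genes had the highest median of any list. Replication-dependent histone messages lack a poly(A) tail and end in a stem-loop, and sorted RNA was not selected for poly(A). Of 51 tested genes of the Hist1 to Hist3 clusters, 49 were higher in sorted cells, 48 of them by 4-fold or more, with a median log2 fold change of 8.35. Some genes above that median had 0 whole testis reads. Their fits are not fixed in size, so the median is uncertain. Their summed level averaged 187 times that of whole testis, and they took 0.273% to 0.369% of sorted reads against 0.00407% to 0.00439% of whole testis reads. Kit and tissue cannot be told apart in these values. Copies of these genes are nearly identical, so the level of any single one is uncertain.

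The stem-loop letters were searched on the sense strand in mm9, in the last 250 bases of each gene and the 50 bases after it. They were found in 42 of the 63 histone genes (66.7%) and in 45 of all 26385 genes (0.171%). All 35 tested histone genes with the letters were higher by 4-fold, from 3.10 to 14.28 on the log2 scale with a median of 9.32. The highest and the median value are fits of genes with 0 whole testis reads (Hist1h4c and Hist1h3i), so their sizes are not fixed. All 42 histone genes with the letters, tested or not, together had 79630 sorted and 255 whole testis reads. Among the 16 tested without them, 13 were higher by 4-fold and 2 lower, with a median of 6.19. The window was placed from the annotated gene end, so a gene without the letters may still hold a stem-loop outside it. Stem-loops of 4 histone genes and of Gm12260 are shown because these genes stood far above whole testis, and that of Hist2h2ac because its gene differed least among the histone genes with the letters. Capitals mark both arms of the stem, and coordinates are mm9.
Hist1h4c, chr13:23789953-23789978 (-): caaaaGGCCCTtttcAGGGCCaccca
Hist1h2ba, chr13:24025594-24025619 (-): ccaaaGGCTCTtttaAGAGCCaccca
Hist1h1a, chr13:23856256-23856281 (+): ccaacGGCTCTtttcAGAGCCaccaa
Hist1h2ak, chr13:21845246-21845271 (-): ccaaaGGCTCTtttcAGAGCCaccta
Hist2h2ac, chr3:96024336-96024361 (-): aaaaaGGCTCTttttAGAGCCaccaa
Gm12260, chr11:58775750-58775774 (+): ccaacGGCTCTtttcAGAGCCaccc

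Hist1h4c, a histone H4 gene, had 0 whole testis reads and levels of 406, 251, 489 and 417 in sorted cells, at least 4049-fold above a floor of 3 reads over the whole testis group. Hist1h1a, a linker histone gene, had levels of 841, 819.6, 592 and 635 against 0.603, 0.824 and 0.927 (log2 fold change 9.83, adjusted p = 4.85e-16, edgeR). Hist1h2ba, which encodes the testis histone TH2B, had levels of 600.4, 470.0, 499 and 521 against 0.386, 0.0932 and 0.21 (log2 fold change 11.04). Its neighbour Hist1h2aa, which encodes TH2A, had levels of 1276, 970.5, 1109 and 1298 against 0, 0.186 and 0 (log2 fold change 13.74), although the exact letters were not found in its window. Hist2h2ac differed least among the histone genes with the letters (mean levels 8.48 against 0.972, log2 fold change 3.10). Hist2h2be and Hist3h2a, without the letters, were lower in sorted cells (log2 fold changes -6.80 and -2.52). Of the 3 other genes with the letters, Gm12260, annotated as a pseudogene beside the Hist3 genes on chromosome 11, was also the largest fitted rise outside the lists. It had levels of 2780.5, 2041, 2511 and 2729.5 in sorted cells and 1.19, 0.882 and 1.39 in whole testis (log2 fold change 11.08 ± 0.18 (SE), adjusted p = 9.14e-17), and had 35538 sorted and 37 whole testis reads.

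**Figure D4:**
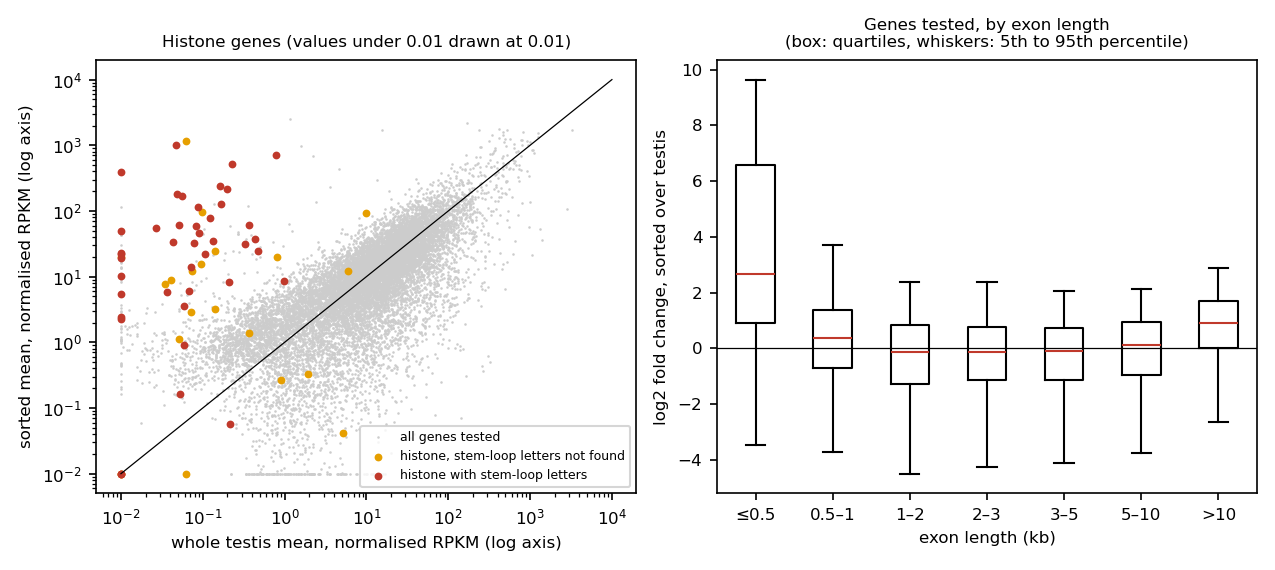
Left, mean normalised RPKM in whole testis (x axis) and sorted germ cells (y axis), both on log scales with values under 0.01 drawn at 0.01, for all genes tested (grey) and histone genes with (red) or without (orange) the stem-loop letters, with a line at equal levels. Right, log2 fold change (y axis) of the genes tested by exon length (x axis, kb), with boxes for quartiles, red lines for medians and whiskers from the 5th to the 95th percentile. Most histone genes lie far above the line, and genes of up to 500 bases have a median of 2.67 against -0.11 for those of 3000 to 5000 bases.

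Most short noncoding RNAs that could be tested were also higher. All 18 tested small structural RNA genes of the list rose, 12 of them by 4-fold, with a median of 2.47, and 87 more had too few reads. With the trend on exon length taken out, that median was -1.474. The trend was fitted over all tested genes, these included, so length and RNA class cannot be told apart in it. By annotated type, 54 of 55 tested snoRNAs and 12 of 13 snRNAs rose, with medians of 3.68 and 5.88. Of 11 tested miRNA genes, 8 rose and 3 fell, each by 4-fold or more. The median over 14156 protein-coding genes was -0.05. Exon length moved with the difference. Genes of up to 500 bases had a median of 2.67, genes of 500 to 1000 bases 0.37, and those over 10000 bases 0.92. Protein-coding genes outside the histone, ribosomal and small RNA lists kept a median of 0.74 at up to 500 bases (62 genes) and 0.94 over 10000 bases (271 genes). Genes for ribosomal proteins, which are short, went both ways: 44 of 76 rose (57.9%, against 40.4% of all genes) and 25 fell (32.9%, against 42.8%). Reads that these genes share with near-identical copies were not kept, so their single levels are uncertain. Their median was 0.27, or -0.427 with limma on the deposited RPKM, where the median of all genes was -0.63. Of the long noncoding RNAs listed, H19 and Meg3 were found, and both fell (log2 fold changes -1.90 and -3.22).

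Genes on the X chromosome were also counted. Of 566 tested X-linked genes, 24.6% were lower by 4-fold against 14.7% of all genes, and 7.6% were higher against 7.71%. Their median log2 fold change was -0.41. The X chromosome held 3.88% of genes tested, 3.82% of those 4-fold higher and 6.49% of those 4-fold lower. The difference in shares was not tested.

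Genes with the largest fitted falls, among those whose libraries did not overlap and that reached a mean RPKM of 10 in the higher group, included members of the somatic lists. Fits of genes with 0 sorted reads have no upper bound, so their place above genes that were read, such as Col3a1, Col1a2 and Acta2, is not fixed. Besides Cyp11a1, Tcf21, Lyz2 and Hsd3b1, they were Mgp, an inhibitor of calcification, Serpinb1a, a protease inhibitor, Agt (angiotensinogen), Foxs1, a forkhead factor, Pdlim3, a protein of the muscle cytoskeleton, and Steap4, a metalloreductase. Mgp, Serpinb1a, Agt and Foxs1 had 0 sorted reads and were at least 833-, 332-, 260.0- and 179-fold higher in whole testis. Pdlim3 had 2 sorted reads, and its whole testis level was 1244 (95% counting interval 344 to 10275) times the sorted level. Steap4 had 1 read, with a ratio of 1292 (95% counting interval 232 to 51068). The largest fitted rises by the same rule were short or structural RNAs in every case except Gm12260. They included n-R5s151, a copy of 5S ribosomal RNA (at least 351-fold higher, 0 whole testis reads), RNaseP_nuc, the RNA of ribonuclease P (mean levels 127 against 0.136), and Mir463 (at least 90.0-fold higher).

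A second list of rises was limited to protein-coding genes and was chosen after the values were seen. Tmsb10, which encodes the actin-binding thymosin beta 10, had levels of 2240.3, 2387, 1822 and 2168 in sorted cells and 169, 164 and 174 in whole testis (log2 fold change 3.67 ± 0.10 (SE), adjusted p = 7.48e-15). Crebbp, a histone acetyltransferase, had levels of 209.8, 196, 194 and 214 against 21.01, 20.02 and 16.0 (log2 fold change 3.42). The transcription factors Foxc2, Zfhx3, Barhl2, Runx3 and Dlx3 had log2 fold changes of 3.39, 3.35, 3.33, 3.23 and 3.05. Foxc2 had levels of 49.1, 62.6, 49.2 and 48.3 against 5.51, 4.75 and 4.69. Gm1673, Pla2g1b and Rab42-ps had log2 fold changes of 3.23, 3.07 and 3.07.

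The same comparison was made in Morc1tg/tg mice, with 3 sorted germ cell and 3 whole testis libraries made with the same kits as above and none shared with the 7 libraries. There 5952 of 15246 genes (39.0%) were higher and 6670 (43.7%) lower, and 1482 (9.72%) and 2668 (17.5%) passed 4-fold. Of the genes tested in both genotypes, 5205 were higher in both, which is 90.8% of the Morc1tg/+ and 92.1% of the Morc1tg/tg calls. Lower in both were 5904, or 94.5% and 92.1%. At 4-fold, 910 were higher in both (90.3% and 71.8%) and 2039 lower (95.2% and 82.4%). Across 14439 genes, which are not independent replicates, the log2 fold changes had a Pearson r of 0.956. Called in opposite directions were 26 genes. Since both genotypes used the same pair of kits, the agreement holds for tissue and kit together. List medians in Morc1tg/tg were further from 0 for several germ and somatic cell lists: 2.17 for meiotic genes against 1.72, 1.87 for undifferentiated spermatogonia against 1.37, and -5.27 for Sertoli genes against -4.21. For rete and surface epithelium they were -4.40 against -4.46. The medians of macrophages and leukocytes rest on genes with 0 sorted reads and are not set against each other. These differences were not tested. Morc1 itself had a log2 fold change of 1.66 in Morc1tg/tg and 1.30 in Morc1tg/+ mice. Cd68, higher in Morc1tg/+ sorted cells, had a log2 fold change of -0.02 in Morc1tg/tg. Amh and Sycp1 differed by log2 fold changes of -6.60 and 2.61 there, and Pdgfa and Fosb by 1.39 and 4.91.

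**Figure D5:**
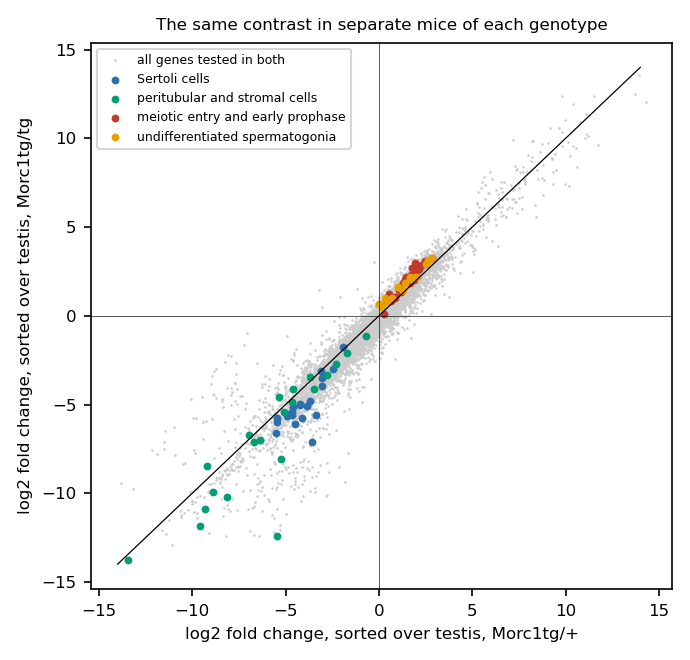
Log2 fold change of sorted germ cells over whole testis at P10.5 in Morc1tg/+ (x axis) and Morc1tg/tg mice (y axis) for 14439 genes tested in both (grey), with 4 marker lists coloured and a line at equal values. Points follow the line, with r = 0.956 across genes, and most Sertoli and peritubular genes lie below it.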

How the data were processed

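RNA-Seq of Morc1tg/+ mice at P10.5 was taken from 4 libraries of sorted germ cells and 3 of whole testis. The authors aligned reads to mm9 (Bowtie, HTSeq and SAMtools are named in their notes, without versions) and deposited, per library, raw counts of reads on each gene and RPKM values. The deposited RPKM was used here to recover exon lengths, to judge overlap between groups and in 1 alternative test.

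The counts went into edgeR 4.0.16 (R 4.3.3), whose quasi-likelihood F-test was run after filterByExpr and TMM scaling. A gene was called at a Benjamini-Hochberg adjusted p under 0.05 across every tested gene. The procedure was tested on simulated data in which few genes changed, by at most 4-fold. A comparison in which most genes differ was not simulated. The methods used DESeq, which was not run. All same-group pairs of libraries differed by more than sampling noise (chi-square per gene of at least 4.45). The log2 fold change is sorted over whole testis. The SE given beside it is its size divided by the square root of the F statistic. That value was not estimated directly from the fit and can lie below counting error where a group has few reads. Levels of genes with 0 reads in a group were bounded with a floor of 3 reads over the group, and counting intervals ignore the spread between mice.

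The named genes were the leading 4 of each list, the 10 largest rises and falls outside the histone, ribosomal and small RNA lists whose groups did not overlap and whose mean RPKM reached 10 in the higher group, and list members that went against their list. The libraries, gene lists and tests were chosen with earlier results of these data known. List members whose symbols did not match the files, such as Malat1 and the mitochondrially encoded genes, were not analysed here. DESeq2 1.42.0 and limma 3.58.1 (trend on log2(RPKM + 0.5)) were alternatives.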

Additional observations from a re-analysis of the deposited data

Results flagged for a closer look

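Among 154 named genes and summed lists, 12 had a sorted library that stood apart from the other 3 by its gap relative to the range, and about 1 in 20 such groups does so by chance. Sorted library 2 was high for Foxc2 (62.6 against 48.3 to 49.2), Slc16a1 (12.49 against 10.2 to 10.3), Pvrl3 (7.43 against 6.26 to 6.39), Erbb3 (12.8 against 10.48 to 10.86) and the summed glucose and lactate list (980.5 against 927 to 931), all as normalised RPKM. The same library was low for Meig1 (2.14 against 3.69 to 3.90) and H2-D1 (5.29 against 7.12 to 7.43). Library 1 was high for Dnmt3a (18.1 against 16.1 to 16.2) and low for Tdrd1 (37.2 against 41.7 to 42.6). Library 3 was high for Crabp2 (4.58 against 2.60 to 2.79). Library 4 was low for Acta2 (0.220 against 0.729 to 0.805) and high for the summed list of pachytene and later genes (101.2 against 94.3 to 94.8).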

How the results depend on the processing

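Counts of genes called stayed within 1.5 times the reported ones in 105 of 108 recomputations. The exceptions were the 4-fold higher genes without a filter on low counts (2088) and, with limma on log2(RPKM + 0.5), the genes higher (2998, with 9160 lower) and 4-fold higher (164). That alternative changes the scaling, the added constant and the test together. Under it the median over all genes was -0.63 and 24.7% of calls were higher, against 48.5%, and the cause was not tested. Relative to 0, it turned the medians of differentiating spermatogonia (-0.23), DNA methylation and Morc genes (-0.51), cell cycle genes (-0.10) and ribosomal proteins (-0.427), and the log2 fold changes of Srd5a1 (-0.32), Ccnb1 (-0.65), Sohlh2 (-0.17), Crabp1 (-0.29), Piwil2 (-0.28), Pfkp (-0.003), Nr4a1 (-0.16), Pvrl3 (-0.079), Jag1 (-0.053), Rarg (-0.036) and Epcam (-0.05). Taking out the trend on exon length, which was fitted with the same genes included, turned the median of small structural RNAs (-1.474). Upper quartile factors moved the median of all genes to 0.16 (6714 higher, 5528 lower). Over all alternatives, 103 recomputed list medians moved by at least their spread between sorted libraries, 358 moved less and 5 changed sign. Ccnb1, which was not called, also turned without the filter (-0.08), with Morc1+/+ testes added (-0.028) and without sorted replicate 2 (-0.005), sorted replicate 3 (-0.007) or whole testis replicate 2 (-0.011), and its leave-one-out values reached 0.043. Leaving out 1 library at a time gave 5564 to 5948 genes higher and 6045 to 6539 lower, and 1201 to 1280 and 2164 to 2333 at 4-fold. DESeq2 gave 5783 higher and 6231 lower. In Morc1tg/tg, alternatives chosen after seeing the data gave, without 1 library, 5521 to 6020 higher and 6158 to 7020 lower, and 1441 to 1649 and 2516 to 2908 at 4-fold. Replicate numbers were taken as names only. The sources used here do not state whether a mouse gave both a sorted and a whole testis library. Deviations of same-numbered libraries had correlations of -0.008, 0.09 and -0.02, too few to settle whether any were paired. Under a replicate block, 5697 genes were higher and 6117 lower, 1113 and 2176 at 4-fold, and in Morc1tg/tg 5755 were higher. Depth limits genes near 0 in the sorted libraries, which held fewer reads.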

Other observations

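Sorted Morc1tg/+ germ cells of earlier stages were made with the same kit as those of P10.5 but sorted by the eGFP reporter. Their mice came from crosses with the reporter strain, of mixed background, so stages can differ in strain and in sorting as well as in age. Summed histone levels had medians of 948 at E16.5 (n = 2), 995 at E18.5 (n = 2), 2846 at P2.5 (n = 3) and 6110.4 at P10.5 (n = 4), and the P10.5 libraries (4914 to 6838) lay above all others. Hist1h2ba, which encodes the testis histone TH2B, had medians of 15.4, 42.8, 62.8 and 515 in the same order of stages, and Hist1h2aa (TH2A) 78.3, 280.3, 367 and 1207. Mki67 stood at medians of 10.4, 12.49, 171 and 154. Summed Sertoli gene levels were 246, 261, 156 and 391, but single markers had other orders: Sox9 had medians of 12.5, 31.0, 4.33 and 12.5, and Amh 1.82, 0.457, 10.3 and 6.28. Zbtb16 had medians of 5.67, 12.9, 62.8 and 69.3, and Sycp1 28.3, 37.2, 61.3 and 119. Normalisation was repeated over all sorted stages together, so these levels differ slightly from those above, and no test was made.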
